A study of Mus musculus with 3 samples.

Results

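Collagen IV chains, laminin chains and nidogens, the network proteins of basement membranes, are described here, comparing Pim1 knockout with wild-type mouse cells grown from the aorta. They were the collagen IV chains Col4a1, Col4a2 and Col4a5, the laminin chains Lama4, Lama5, Lamb1 (printed Lamb1-1 on the array), Lamb2 and Lamc1, and the nidogens Nid1 and Nid2. All probes carrying one of these gene names were taken, which gave 15 probes of 41174 on the array and 10 genes of 19696 named. The FVB/N Pim1 knockout cells were compared with FVB/N wild-type cells, and the labels call both primary aortic endothelial cells of female mice aged 12 weeks. Both were grown on gelatine-coated dishes in serum-containing medium and harvested for RNA a day after seeding. Each of 3 arrays held knockout RNA in the red dye (Cy5) and wild-type RNA in the green dye (Cy3), as 3 biological replicates without a dye swap, so a dye effect cannot be told apart from the genotype. The labels do not say whether replicates came from separate animals or whether the wild-type RNA was 1 pool, so a p-value here measures only the spread between these arrays.

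A basement membrane is a sheet of matrix under endothelial and epithelial cells. Laminins, each made of an α, a β and a γ chain, assemble into a network at the cell surface, and collagen IV, made of 3 α chains wound together, forms another network that crosslinks covalently. Nidogens bind both networks. In blood vessels the laminin α chains are mainly α4 (Lama4) and α5 (Lama5), and the collagen IV is mainly made of α1 (Col4a1) and α2 (Col4a2). Pim1 is a serine/threonine kinase.

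Several facts of the arrays touch every value. The probe for Pim1 (chr17:29220807-29220866, mm8, the build of the array files) gave log2 ratios of −0.97, −1.16 and −0.99, and it was lower in the knockout (−1.04 ± 0.10 SD, n = 3 arrays, limma adjusted p = 0.00301). Which stretch of Pim1 was deleted is not given in the labels, so this probe may lie outside it. Array 1 stood apart: over all tested genes its ratios correlated with those of arrays 2 and 3 at 0.681 and 0.699, while arrays 2 and 3 correlated at 0.905 (a description across genes, which are not independent). Most markers of the labelled cell type were absent or faint: of 15 endothelial markers 9 were too dim to test. Pecam1, Cdh5, Tie1 and Erg were not well above background in either channel on any array, and the brightest probes of Tek, Vwf, Emcn, Cldn5 and Robo4 exceeded it on no knockout array and on 1 wild-type array. Of the 6 tested, Eng and Egfl7 were higher, Fli1 was lower and 3 did not pass. The channel intensities summed over all 15 were 6203 to 7855 in the knockout and 2791 to 3304 in the wild type. Eng (mean log2 intensity 11.67 in the knockout, 9.16 in the wild type) and Egfl7 (11.15 in the knockout, 9.74 in the wild type) carried that difference, so the sum is not a level of the whole list. The sums that follow are likewise over each whole marker list, including markers too dim to test. In each of them the few brightest markers carry most of the sum, so it is not a level of the whole list. Of 8 mesothelial and epithelial markers tested, 7 were lower and 0 higher, with sums of 6838 to 7291 in the knockout and 72540 to 94722 in the wild type. Of 9 fibroblast markers tested, 7 were higher and 1 lower, with sums of 213739 to 241301 in the knockout and 178244 to 211954 in the wild type. Of 8 smooth muscle and pericyte markers tested, 1 was higher and 2 lower, and their sums were 56441 to 59366 in the knockout and 54460 to 67010 in the wild type. Of 4 macrophage and leukocyte markers 0 were higher and 2 lower, with sums of 2327 to 2683 in the knockout and 3650 to 4937 in the wild type. The part of these cell types in the results was not tested, and in bulk RNA fewer cells of a type and less RNA per cell cannot be told apart. The female label did not hold for the knockout channel: the Y-linked Eif2s3y was at least 28.1-fold higher in the knockout, Ddx3y at least 12.1-fold and Kdm5d at least 4.68-fold, with wild-type signal not well above background. Uty, also Y-linked, did not pass (limma adjusted p = 0.0719). The brightest Xist probe had a mean log2 intensity of 6.30 in the knockout, not well above background on any array, and of 13.69 in the wild type. This sex-linked difference was present on every array, so its effect on any ratio cannot be told apart from that of the genotype.

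Each of the 10 genes was measured well above background in the knockout and in the wild-type channel of every array. A ratio is always knockout over wild type, on a log2 scale, so a positive one means higher in the knockout. The test asked whether the mean ratio of the 3 arrays differed from 0 (limma, Benjamini-Hochberg adjustment over all 25090 tested probes, threshold 0.05). The mean is given ± SD over 3 arrays. The brightest tested probe stands for a gene. Where levels are said not to overlap, that describes this probe, and the share of all genes without overlap is not given. It is therefore a description and not a test.

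Lama5, Lamb2 and Nid2 were lower in the knockout, and no gene of the 10 was higher. Lama5, the α5 chain, fell most, to 26.6% of the wild-type level. Lamb2 fell to 52.6% and Nid2 to 62.9% of it. Of all 13463 genes tested, 20.1% passed the test in either direction, 8.65% higher and 11.4% lower, so 3 of 10 is not far from the background for so few genes. The remaining 7 genes did not pass, although 7 of the 10 had an unadjusted p under 0.05. So had 4844 of all 13463 genes tested. The median ratio of the 10 genes was −0.33, against −0.016 over all genes tested. Their median absolute ratio was 0.58, against 0.21 over all genes, and their median SD between arrays was 0.35, against 0.20. The 10 genes were also brighter, with a median log2 intensity of 11.43 against 9.93, and the part of brightness was not tested.

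**Figure D1:**
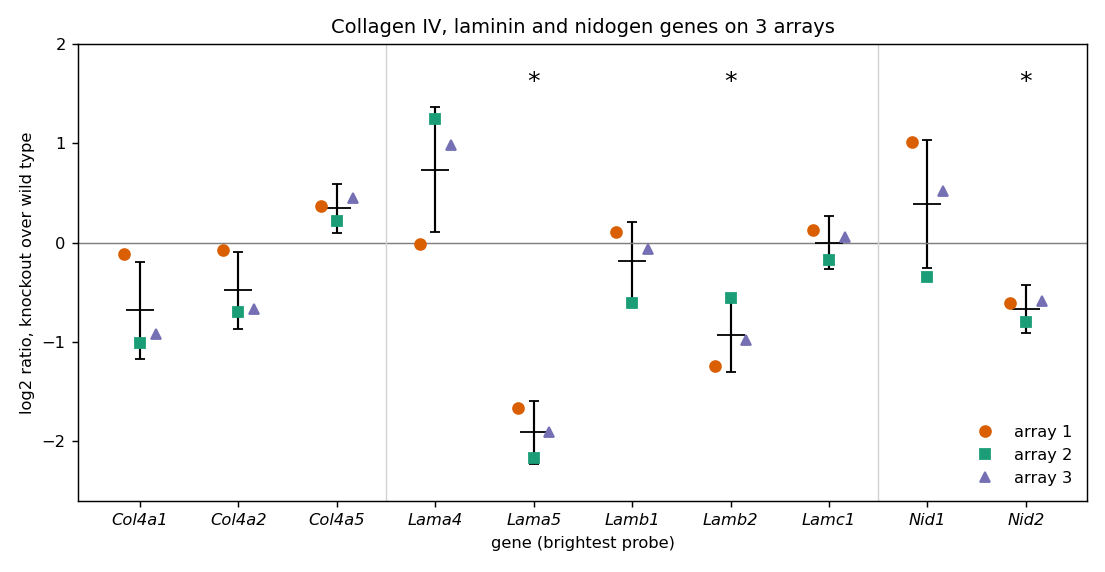
Log2 ratio of knockout over wild type (vertical axis) of the 10 genes (horizontal axis, brightest probe), by array. Bars are the mean of 3 arrays with its unadjusted limma 95% interval, not the SD, and stars mark an adjusted p under 0.05. Lama5, Lamb2 and Nid2 lie below 0 on all 3 arrays, while Lama4, Col4a1 and Col4a2 lie near 0 on array 1 and away from it on arrays 2 and 3.

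The α1 and α2 chains of collagen IV are encoded head to head on chromosome 8. In RefSeq (GRCm38.p6) the annotated starts of Col4a1, on the minus strand, and Col4a2, on the plus strand, lie 21 bases apart. Col4a1 starts at 11312826 and Col4a2 at 11312805, so the annotated genes overlap there and leave no gap. Promoter windows of 300 bases (250 before and 50 after each start) therefore cover the same DNA in part. They are printed to show that overlap, whose part in the ratios of the genes was not tested. Capitals mark the 78 bases that both windows hold, read on opposite strands.
Col4a1, chr8:11312777-11313076, minus strand: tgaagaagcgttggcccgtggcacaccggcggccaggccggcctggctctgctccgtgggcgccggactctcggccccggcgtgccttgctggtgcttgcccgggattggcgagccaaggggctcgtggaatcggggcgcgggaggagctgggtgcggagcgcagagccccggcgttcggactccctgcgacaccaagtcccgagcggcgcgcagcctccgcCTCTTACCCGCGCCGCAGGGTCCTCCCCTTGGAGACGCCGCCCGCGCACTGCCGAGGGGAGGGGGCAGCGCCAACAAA
Col4a2, chr8:11312555-11312854, plus strand: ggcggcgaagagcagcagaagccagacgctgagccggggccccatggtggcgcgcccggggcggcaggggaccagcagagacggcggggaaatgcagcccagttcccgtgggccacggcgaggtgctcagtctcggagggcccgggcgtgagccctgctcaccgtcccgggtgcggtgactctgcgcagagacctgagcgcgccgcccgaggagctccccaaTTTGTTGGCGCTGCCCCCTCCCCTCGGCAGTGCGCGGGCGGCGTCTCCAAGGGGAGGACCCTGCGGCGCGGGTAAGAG
Their GC content was 74.0% and 73.7%, against a median of 52.7% over 32851 promoter windows of that length. The letters CCAAT, searched on both strands, occurred once in each window, as they do at least once in 37.4% of all windows. The letters GGGCGG occurred at 1 place in the Col4a1 window and at 3 places in the Col4a2 window, and they are present in 35.7% of all windows. TATAAA was found in neither window and is present in 13.6% of all. Within a window no match overlapped another. The GGGCGG match of the Col4a1 window and 1 of those in the Col4a2 window are the same bases, in the shared stretch. A match is a description of letters and not of a bound site.

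Neither Col4a1 nor Col4a2 passed the test over 3 arrays. Col4a1 (chr8:11198981-11199040, mm8, minus strand) had log2 intensities of 11.45, 10.74 and 10.66 in the knockout on arrays 1 to 3, against 11.57, 11.75 and 11.58 in the wild type. Its ratios were −0.12, −1.01 and −0.92, with a mean of −0.68 ± 0.49 (limma adjusted p = 0.0702, unadjusted 95% interval −1.17 to −0.19). The knockout was thus lower on all 3 arrays, by little on array 1, and the groups' levels did not overlap. Col4a2 (chr8:11448812-11448871) had 11.55, 11.10 and 11.22 in the knockout and 11.62, 11.80 and 11.89 in the wild type, also without overlap. Its ratios were −0.071, −0.70 and −0.67, with a mean of −0.48 ± 0.36 (limma adjusted p = 0.0922). In both genes array 1 differed from the other arrays more in the knockout channel than in the wild-type channel: Col4a1 was 0.75 higher there than the mean of arrays 2 and 3 in the knockout and 0.099 lower in the wild type. The difference between the ratios of the chains, Col4a1 minus Col4a2, was −0.044, −0.31 and −0.24.

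Each of these genes had a second probe, whose sequences are given because they read the same messages at another place. The Col4a1 probe is at chr8:11199818-11201652 (mm8, minus strand), where its 60 bases span 1835 bases of the genome and so cross an intron. The Col4a2 probe is at chr8:11448152-11448211 (mm8, plus strand).
Col4a1 second probe: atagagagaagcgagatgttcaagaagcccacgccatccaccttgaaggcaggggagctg
Col4a2 second probe: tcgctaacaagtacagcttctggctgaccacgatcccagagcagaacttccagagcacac
The second Col4a1 probe read 0.29, −0.68 and −0.60 (mean −0.33 ± 0.54, limma adjusted p = 0.342), so the knockout was higher on array 1 by this probe and lower by the brightest one. By this second probe the groups overlapped, with 11.54 in the knockout on array 1 against 11.25, 11.56 and 11.49 in the wild type. The second Col4a2 probe read −0.070, −0.72 and −0.50 (mean −0.43 ± 0.33, limma adjusted p = 0.108), which is close to the first on every array.

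Col4a5, an X-linked chain of the minor collagen IV networks, ran the other way without passing the test. Its probe (chrX:136934820-136934879, mm8) had log2 intensities of 8.86, 8.80 and 8.85 in the knockout, against 8.49, 8.59 and 8.40 in the wild type. The groups did not overlap, and the ratios of 0.37, 0.21 and 0.45 gave a mean of 0.34 ± 0.12 (limma adjusted p = 0.0715, unadjusted 95% interval 0.097 to 0.59). Col4a6, its neighbour, encodes the chain that joins α5 in smooth muscle and other basement membranes, and the annotated starts of Col4a5 and Col4a6 lie 1343 bases apart. Col4a6 rose in the knockout, with ratios of 1.25, 1.43 and 1.49 (mean 1.39 ± 0.13, 2.62-fold, limma adjusted p = 0.00134). Its other probes read 0.50 ± 0.021 and 0.93 ± 0.044 (limma adjusted p = 0.0210 and 0.00346), higher on every array but smaller. Because the channels differed in Xist and Y-linked signal, the X chromosome was also counted: of 440 X-linked genes tested, 21 were higher and 66 lower, with a median of −0.073. Of 12980 autosomal genes 1139 were higher and 1465 lower, with a median of −0.015. The part of that difference in the Col4a5 and Col4a6 values was not tested, and on these arrays it cannot be told apart from the genotype.

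**Figure D2:**
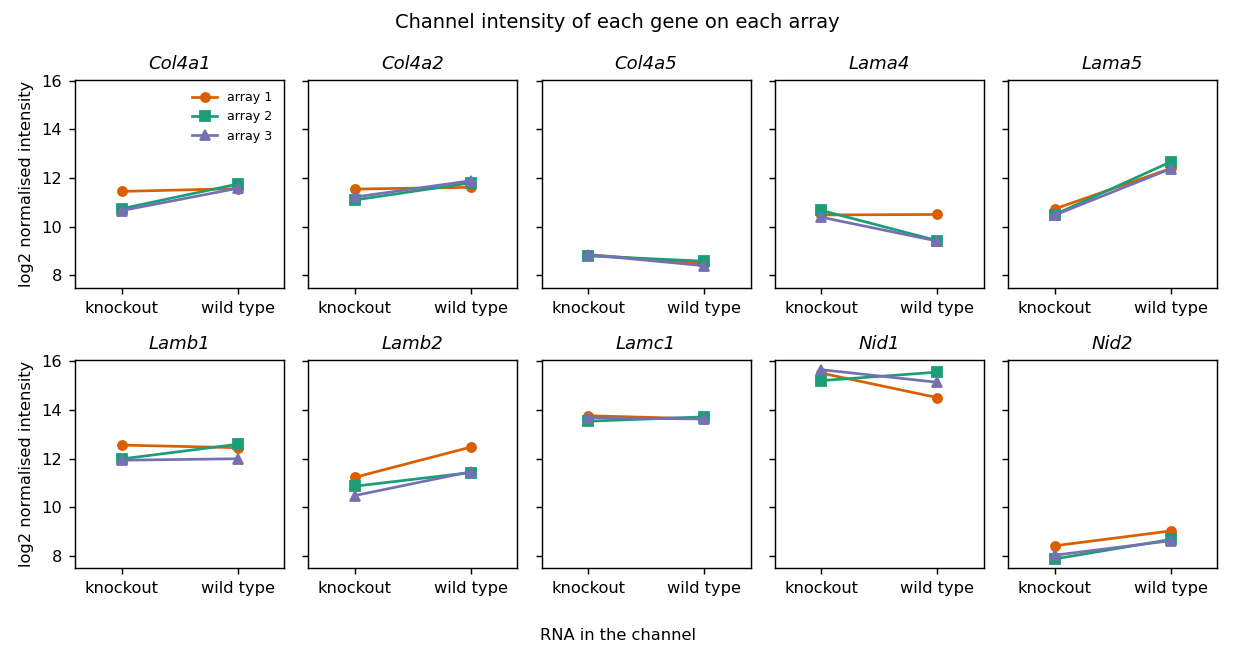
Log2 normalised channel intensity (vertical axis) of each of the 10 genes in the knockout and the wild-type channel (horizontal axis), with 1 line per array. Lama5 slopes up towards the wild type on all 3 arrays, and the wild-type point of Lama4 is higher on array 1 (10.50) than on arrays 2 and 3 (9.43 and 9.41).

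Of the laminin α chains, Lama5 had the clearest fall. Laminins with the α5 chain are strong ligands of the laminin-binding integrins. Its log2 intensities were 10.73, 10.50 and 10.48 in the knockout, against 12.39, 12.66 and 12.38 in the wild type (probe on chromosome 2). Every knockout value was below every wild-type value by more than the spread within either group. The ratios of −1.67, −2.16 and −1.91 gave a mean of −1.91 ± 0.25, a 3.76-fold lower level (limma adjusted p = 0.000992, 95% interval −2.23 to −1.60). Among all 13463 genes tested it was the 188th from the lowest ratio. A single probe on the array carried the name Lama5. Its given coordinates (chr2:180105781-180105795, mm8, minus strand) cover fewer than its 60 bases, so its placement is incomplete.

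Lama4, the α4 chain typical of endothelial laminins, had probes that read higher in the knockout on 2 arrays and near 0 on array 1, and it did not pass the test. A pair of its 4 probes overlaps by 29 bases, printed in capitals to show that they are not independent readings. The first lies at chr10:38795404-38795463 and the second at chr10:38794642-38795432 (mm8, plus strand), where its 60 bases cross an intron within a span of 791 bases.
Lama4 brightest probe: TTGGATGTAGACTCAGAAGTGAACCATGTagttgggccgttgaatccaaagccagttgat
Lama4 overlapping probe: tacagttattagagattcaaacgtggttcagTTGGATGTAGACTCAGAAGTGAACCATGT
The brightest probe had log2 intensities of 10.49, 10.67 and 10.39 in the knockout, against 10.50, 9.43 and 9.41 in the wild type. The groups overlapped through array 1, where the wild-type channel was 1.08 above the mean of arrays 2 and 3 and the knockout channel 0.048 below it. The ratios were −0.019, 1.24 and 0.98 (mean 0.74 ± 0.67, limma adjusted p = 0.108). The overlapping probe read 0.054, 1.25 and 0.93 (mean 0.75 ± 0.62, limma adjusted p = 0.0902), and another probe elsewhere in the message read −0.15, 0.89 and 0.74 (mean 0.49 ± 0.56, limma adjusted p = 0.186). The same array thus differed at every tested Lama4 probe. The remaining probe, designed on another transcript, was not well above background in either channel on any array. The fibroblast markers also differed between arrays, with median ratios of 1.39, 2.54 and 2.15 on arrays 1 to 3, and the mesothelial and epithelial markers with −2.16, −1.33 and −1.14. Their part in the Lama4 and Lama5 values was not tested.

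Of the β chains, Lamb2 fell and Lamb1 did not pass. The β2 chain replaces β1 in the laminins of arterial, synaptic and kidney basement membranes. The Lamb2 probe lies at chr9:108347961-108348020 (mm8, plus strand) and is printed because a single probe carries the call.
Lamb2 probe: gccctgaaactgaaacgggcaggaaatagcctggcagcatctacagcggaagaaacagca
Its log2 intensities were 11.23, 10.86 and 10.48 in the knockout, against 12.47, 11.43 and 11.46 in the wild type. All knockout values were below all wild-type values, and array 1 was the highest in both channels. The ratios of −1.24, −0.56 and −0.98 gave a mean of −0.93 ± 0.34, a 1.90-fold lower level (limma adjusted p = 0.0157, 95% interval −1.30 to −0.55). Lamb1, the β1 chain common to most laminins (chr12:31913875-31915221, mm8), had 12.55, 11.98 and 11.93 in the knockout, against 12.45, 12.59 and 11.99 in the wild type. Its groups overlapped and its ratios of 0.11, −0.60 and −0.060 differed in sign (mean −0.19 ± 0.37, limma adjusted p = 0.485).

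The γ1 chain, Lamc1, which nidogen binds and which most laminins contain, stayed near 0 on each array. Its probe (chr1:154981243-154981301, mm8, minus strand) had log2 intensities of 13.76, 13.53 and 13.68 in the knockout, against 13.63, 13.71 and 13.63 in the wild type. The ratios of 0.13, −0.18 and 0.052 gave a mean of 0.00074 ± 0.16 (limma adjusted p = 0.998), with a 95% interval of −0.26 to 0.27. A change within that interval cannot be told from 0 with 3 arrays.

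Nid2 fell in the knockout and Nid1 differed in sign between arrays. The nidogens are a pair of related glycoproteins that link laminin γ1 to collagen IV. Nid2 (chr14:18601964-18602023, mm8) had log2 intensities of 8.42, 7.87 and 8.03 in the knockout, against 9.03, 8.68 and 8.62 in the wild type, with no overlap. Its ratios of −0.61, −0.80 and −0.59 were the closest together of all 10 genes (mean −0.67 ± 0.12, 1.59-fold lower, limma adjusted p = 0.0120, 95% interval −0.91 to −0.42). Nid1 (chr13:13304276-13304335, mm8) had 15.51, 15.20 and 15.65 in the knockout, against 14.50, 15.55 and 15.13 in the wild type. Its groups overlapped, and the ratios of 1.01, −0.35 and 0.52 spanned the widest range of the 10 genes (mean 0.39 ± 0.69, limma adjusted p = 0.362).

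Chains that assemble together (Col4a1 and Col4a2), laminin chains that take the same place, Col4a5 with Col4a1, and the nidogens were compared in 5 pairs. Each comparison used the difference of the ratios on each array. With 3 arrays an exact sign-flip permutation test cannot give a two-sided p below 0.25, so none could pass. Lama4 minus Lama5 was 1.65, 3.41 and 2.89, a mean of 2.65 ± 0.91 or 6.26-fold (exact p = 0.25, adjusted over the 5 pairs 0.3125). This was positive on all 3 arrays, array 1 included. Nid1 minus Nid2 was 1.62, 0.45 and 1.11 (mean 1.06 ± 0.59, exact p = 0.25, adjusted 0.3125). Col4a5 minus Col4a1 was 0.48, 1.23 and 1.37 (mean 1.03 ± 0.48, exact p = 0.25, adjusted 0.3125). Col4a1 minus Col4a2 averaged −0.20 ± 0.14 (exact p = 0.25, adjusted 0.3125). Lamb1 minus Lamb2 was 1.35, −0.045 and 0.92 (mean 0.74 ± 0.71, exact p = 0.5, adjusted 0.5), so on array 2 the β chains had nearly the same ratio.

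Which of the 10 genes passed depended on the arrays included, and each fit that leaves 1 array out rests on 2 arrays. With arrays 2 and 3 alone 8 of 10 were called, against a background of 42.2% of all genes tested. Lama4 was then higher (1.11, limma adjusted p = 1.21e-08), as was Col4a5 (0.33, limma adjusted p = 0.0263). Col4a1 was lower (−0.96, limma adjusted p = 1.11e-07), as was Col4a2 (−0.69, limma adjusted p = 2.22e-05), and Lamb1 was at −0.33 (limma adjusted p = 0.0394). Without array 2 the calls were Lama5 and Lamb2, beside 5.41% of all genes, and without array 3 Lama5 alone, beside 4.63%. Without array 3 Lamb2 had a limma adjusted p of 0.123. Nid2 had a limma adjusted p of 0.113 without array 2 and 0.0985 without array 3. Of the 10 genes, 8 had an array 1 ratio outside the range of arrays 2 and 3 (80.0%), and so had 80.02% of all genes tested. The sign was the same on all 3 arrays in 6 of the 10 genes and in 54.1% of all genes.

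**Figure D3:**
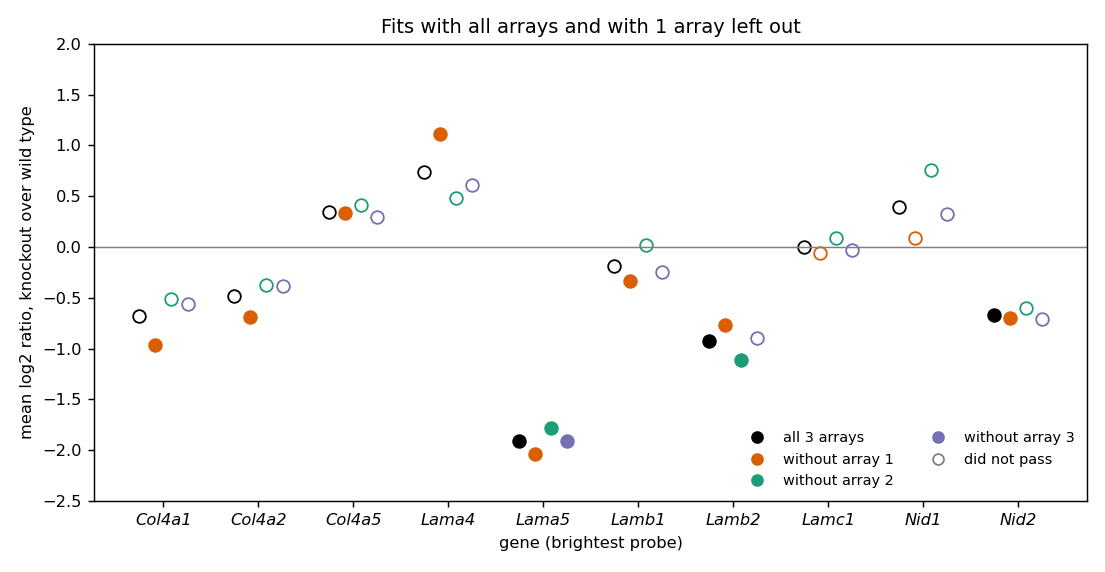
Mean log2 ratio of knockout over wild type (vertical axis) of the 10 genes with all 3 arrays and with 1 array left out (colours). Filled points passed the adjusted p of 0.05. Lama5 was filled in all 4 fits, and Col4a1, Col4a2, Col4a5, Lama4 and Lamb1 in the fit without array 1 alone.

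The other genes of basement membrane assembly were counted in 5 lists of 85 genes, of which 72 were tested. In the knockout 16 rose and 17 fell (45.8% called, against 20.1% of all genes tested). The lists were chosen with earlier results of these data known, so that excess is not evidence about the pathway. With both channels above background on every array, 63 were tested, and 15 were higher and 13 lower (44.4% called, against 19.5%). With median centring of the arrays in place of loess the split was 18 higher and 14 lower. Of the other collagen IV and laminin chains 5 of 9 were tested, and 1 was higher (Col4a6) and 2 lower. Lamb3, the β3 chain of an epithelial laminin, fell by 1.99 ± 0.23 on the log2 scale (limma adjusted p = 0.000748), but its knockout signal was well above background on 1 of 3 arrays. Lama3, an α chain of epithelial laminins, was at −0.027 ± 0.13, not well above background in the knockout. Col4a3, Lama1 and Lamc3 were not well above background in either channel on any array.

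Of the other basement membrane proteins 15 of 20 were tested, with 3 higher and 5 lower (53.3% called) and a median of −0.35. That median depended on the filter for dim probes: it was −0.017 over the 12 genes that exceeded background in the knockout and the wild type on every array, and −0.015 over all 20. Fbln1, a fibulin that binds laminin and nidogen and that is also on the fibroblast marker list, had ratios of 1.56, 2.54 and 2.68 (mean 2.26 ± 0.61, limma adjusted p = 0.00403). Smoc1, a calcium-binding matrix protein, rose by 1.29 ± 0.64 (limma adjusted p = 0.0229), and Agrn, the heparan sulphate proteoglycan agrin, by 0.71 ± 0.17 (limma adjusted p = 0.0127). Npnt, the integrin α8 ligand nephronectin, fell by 1.98 ± 0.36 (limma adjusted p = 0.00172). Ecm1, a glycoprotein that binds several matrix proteins, fell by 1.46 ± 0.23 (limma adjusted p = 0.00211). Col18a1, whose product carries endostatin, fell by 1.32 ± 0.30 (limma adjusted p = 0.00431), and the related Col15a1 by 1.26 ± 0.45 (limma adjusted p = 0.0110). Smoc2 fell by 0.96 ± 0.075 (limma adjusted p = 0.00332), opposite to Smoc1.

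Genes for collagen folding, hydroxylation, export and crosslinking had the most calls, with 9 higher and 4 lower of 21 tested (61.9%) and a median of 0.38. Most of them serve fibrillar collagens as well as collagen IV. Loxl1 and Lox, lysyl oxidases that crosslink elastin and fibrillar collagen, rose by 1.69 ± 0.17 and 1.41 ± 0.54 (limma adjusted p = 0.000916 and 0.0123). Plod2, a lysyl hydroxylase, rose by 1.65 ± 0.21 (limma adjusted p = 0.00122), and Serpinh1, the collagen chaperone HSP47, by 1.22 ± 0.27 (limma adjusted p = 0.00455). Loxl4 and Loxl2 fell by 1.81 ± 0.20 and 1.24 ± 0.090 (limma adjusted p = 0.000834 and 0.00162). Loxl2 is known to crosslink the 7S domain of collagen IV. Loxl3 fell by 0.89 ± 0.072 (limma adjusted p = 0.00421), and P3h2, a prolyl 3-hydroxylase that acts on collagen IV, was at least 1.94-fold lower (limma adjusted p = 0.00627), as its knockout signal was not well above background. Pxdn, the peroxidase that forms the sulfilimine crosslinks of collagen IV, did not pass (0.28 ± 0.099, limma adjusted p = 0.111).

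Of 17 receptors for laminin and collagen IV, 1 was higher and 5 lower (35.3% called), with a median of −0.24. Itgb4, the β4 integrin subunit of hemidesmosomes, had ratios of −3.93, −3.26 and −3.34 (mean −3.51 ± 0.36, limma adjusted p = 0.000372). Itga6, which pairs with β4 or β1 to bind laminin, fell by 1.62 ± 0.50 (limma adjusted p = 0.00656). Itga3, a subunit of the laminin receptor α3β1, fell by 1.41 ± 0.074 (limma adjusted p = 0.00100). Itga7, another laminin-binding subunit, fell by 0.90 ± 0.11 (limma adjusted p = 0.00468), while Itga2, of the collagen and laminin receptor α2β1, is counted as lower on a probe not well above background in the knockout on any array (limma adjusted p = 0.0489), so no fold is given. Sdc4, a heparan sulphate proteoglycan of the cell surface, rose by 1.10 ± 0.12 (limma adjusted p = 0.00262). Itgb1, the β1 subunit that these α subunits share, was at 0.017, −0.88 and −0.37 and did not pass (limma adjusted p = 0.189). Of Lama5, Lamb3, Itgb4 and Itga6, each is also abundant in epithelia, and the mesothelial and epithelial markers were lower in the knockout as given above, whose part was not tested.

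Of the proteases and inhibitors 14 of 17 were tested, with 2 higher and 1 lower (21.4% called, near the background) and a median of 0.23. Plat, tissue plasminogen activator, rose by 0.78 ± 0.43 (limma adjusted p = 0.0380), Ctsl, cathepsin L, rose by 0.36 ± 0.045 (limma adjusted p = 0.0499), and Timp2, an inhibitor of metalloproteinases, fell by 0.47 ± 0.17 (limma adjusted p = 0.0393). Several of these calls were lost when array 2 or array 3 was left out. Limma adjusted p-values were above 0.05 both without array 2 and without array 3 for Plat, Ctsl, Timp2, Smoc1, Agrn, Col15a1, Loxl3, Itga2 and Itga7. This was so for P3h2 without array 2 only, and for Lox, Serpinh1, Smoc2 and Itga6 without array 3 only. Without array 1, Itgb1 passed as lower (−0.63, limma adjusted p = 0.000222). Other probes of these genes differed in size: a second Ecm1 probe read −0.50 ± 0.058, a second Loxl2 probe −1.85 ± 0.075, and dim further probes of Plat (−0.033) and Itgb4 (−0.15) did not pass.

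**Figure D4:**
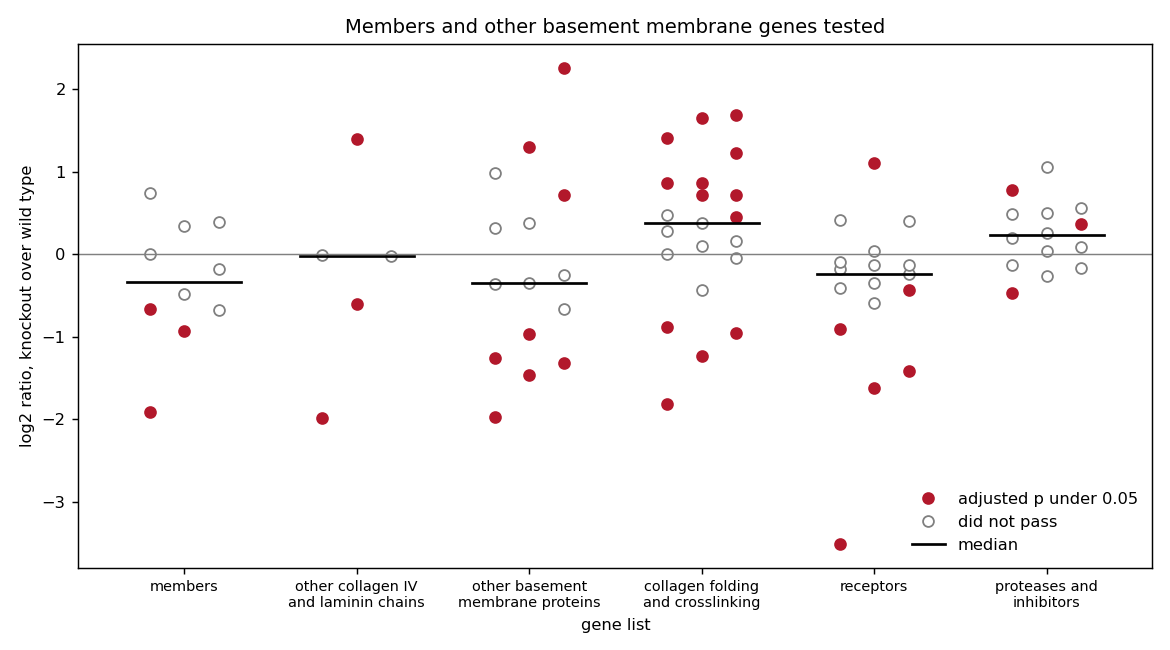
Log2 ratio of knockout over wild type (vertical axis) of each tested gene in the set of 10 genes (labelled members) and in the 5 other basement membrane lists (horizontal axis). Filled points passed the adjusted p of 0.05 and the line is the median, which was −0.33 in the 10 genes, 0.38 in collagen folding and crosslinking and −0.24 in the receptors.

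For the gene of largest absolute mean ratio in each family, the genes with the most similar ratios were found by Euclidean distance over the 3 arrays among 13451 tested genes. For Col4a1 the nearest was Tinagl1, a basement membrane protein related to tubulointerstitial nephritis antigen, at a distance of 0.0785, with ratios of −0.056, −1.05 and −0.88. Mafk and Phgdh followed at 0.0955 and 0.113. For Lama5 they were Erfe (0.143), Lamb3 (0.144) and Ism1 (0.166), and for Nid2 they were Pls3 (0.0334), Ezr (0.0456) and Shank3 (0.0652).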

How the data were processed

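Total RNA of Pim1 knockout and wild-type cells was hybridised to 3 two-colour 60-base oligonucleotide arrays. Per the file headers, the deposited files came from Agilent Feature Extraction 9.5.3.1, a version also in the submitters' processing notes. They held pixel intensity (mean and median) with local background for each dye, and the scanner software's log10 ratio. The deposited value table held the same log10 ratio. All arrays came from 1 slide and 1 scan. No spot was saturated and no spot of the 15 probes was flagged. Probes well above background made up 53.8% to 57.2% in the knockout channel and 58.4% to 62.6% in the wild-type channel, and the number of arrays limits precision.

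Background was corrected with normexp (offset 50), ratios were normalised within arrays by loess with control and flagged spots at weight 0, and spots of a probe were averaged. Tested probes exceeded background clearly in either channel on 2 or more arrays. The mean log2 ratio computed from the deposited intensities was compared with 0 by lmFit and eBayes of limma 3.58.1 (R 4.3.3), after a check on simulated data. Channel levels followed loess and Aquantile normalisation and are open to dye bias. A fold written "at least" sets the brighter channel's mean against that of the dimmer channel. On each array a dimmer signal below the lowest one well above background was first raised to it. Probes were named through RefSeq accessions (24375), other accessions (115), symbols (6234) or synonyms (2391), 8059 had no name, and 295 antisense probes were not used. Probes are placed by the mm8 coordinates in the array files, without exon annotation. Promoters came from RefSeq (GRCm38.p6), which had an entry for 7 of the 10 genes.

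The 10 genes and all lists were chosen with earlier results of these data known. The genes named were the 10, Col4a6, Pim1, the sex-linked genes, and from each list the 5 called genes of largest absolute ratio. A gene that this rule also names is not reported here, though list counts include it. Lama3, Agrn, Col15a1, Smoc2, Serpinh1, Loxl3, P3h2, Pxdn, Itga2, Itgb1 and the endothelial markers were named after their values were seen. Alternatives changed the background correction, intensity summary, ratio source, normalisation, probe filter, variance model, probe choice and arrays included.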

Additional observations from a re-analysis of the deposited data

How the results depend on the processing

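The 10 alternatives that kept all arrays left Lama5 (−2.01 to −1.76) and Lamb2 called each time. Nid2 was called in 9 of them and missed with median centring in place of loess (−0.60, limma adjusted p = 0.0736), and the other 7 genes were called in none. Lamc1, with a mean of 0.00074, changed sign with median pixel intensities (−0.015) and the software's log ratio (−0.016), and was at 0.25 with median centring. With 1 replicate left out it ranged from −0.064 to 0.091, below 0 without replicate 1 or 3 (−0.025). Lamb1 changed sign without replicate 2 and ranged from −0.33 to 0.023. Leaving out each replicate gave 843 to 9080 called probes (4289 with all), 616 to 5556 called genes (2704 with all), 1 to 8 of the 10 genes (3 with all) and 14 to 49 of the other basement membrane genes (33 with all). These fits rest on 2 arrays. Median centring gave 2715 called probes, moved the median ratio of all genes to 0.082, and made 55.5% of called genes higher, against 43.1% with loess. Dim genes moved most: without the normexp offset Lamb3 was at −2.91, Col15a1 at −2.05 and P3h2 at −1.83, and with the software's log ratio Lamb3 was at −4.01, Col15a1 at −3.01, P3h2 at −3.52 and Smoc2 at −1.71. The sex-linked genes moved likewise, and Uty passed under 4 alternatives. Itgb4 was at −2.48 with the mean of its probes, 1 of which was not above background in the knockout. Ctsl, Plat, Timp2 and Itga2 each missed the threshold in several alternatives that kept all arrays, and Smoc1 in 1. All 5 pair differences kept their direction in each alternative, in a design too small to pass. Causes were not tested. The main test is itself paired by array, since it sets the within-array ratios against 0. No paired analysis was possible beyond that, with 1 group of ratios. The median of the other basement membrane proteins ranged from −0.68 without the offset to −0.015 with no filter on dim probes. Ratios of dim probes are drawn towards 0 by the offset.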
